A study of Mus musculus with 116 samples.

Results

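The Igkv10 family of the mouse immunoglobulin kappa locus consists here of 3 variable (V) segments, Igkv10-94, Igkv10-95 and Igkv10-96, out of 162 annotated Igkv segments on chromosome 6. A row of a junction list was assigned to a member when its junction lay within 100 bp of that segment, by the GRCm38 coordinates of RefSeq. The 42 lists made from breaks at the Jk1 coding end held 20549 such rows. The lists belong to a series of 116 samples of v-Abl pro-B cells, mouse B-lineage progenitors immortalised with the v-Abl oncogene. They report which V segment the broken Jk1 end had joined, read by LAM-HTGTS, a method that extends a primer beside the break into whatever sequence was joined to it. The study asked what end joining looks like in G1-arrested cells that lack Ku70, ligase IV (Lig4) or both. The rows are DNA junctions, so neither cell type markers nor the targeted genes were measured here, and genotypes rest on the labels.

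All cells carried the Emu-Bcl2 transgene, a Bcl2 gene under the immunoglobulin heavy chain enhancer that keeps arrested B-lineage cells alive, and all were held in G1 with STI-571, an Abl kinase inhibitor, at 3 µM for 96 h. WT libraries, with no further change, came from clones A and B, and Ku70-/- libraries from clones A1 and B1. Lig4-/- libraries came from clones A1 (in 2 sets), B1 and C. Lig4-/-Ku70-/- libraries came from clones A1_1 and C1, and the same clones with Ku70 added back are called +Ku70. Lig4-/- clones A1 and C with Lig4 added back are called +Lig4. Each of the 14 groups had 3 libraries and each is a single clone. The labels do not say that replicates came from separate cultures, so p-values measure the spread between libraries, which may be technical. Clones that share a first letter are treated as a lineage.

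Igkv segments supply the variable part of the kappa light chain. The RAG recombinase cuts between a segment and its recombination signal sequence, a heptamer and a nonamer held apart by a spacer, and leaves a coding end on the segment and a signal end on the signal. In classical end joining Ku binds the ends and Lig4 seals the V coding end to a J coding end, often after a few bases are lost or added. Other joining routes tend to lose more bases and to use microhomology, a short run of bases shared by both ends. A hybrid joint places the coding end of one segment against the signal end of the other.

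The members lie within 73 kb. Igkv10-94 (RefSeq gene ID 667550) spans chr6:68704508-68704978, Igkv10-95 (434031) chr6:68680379-68680848 and Igkv10-96 (692165) chr6:68631965-68632430. They stand 2.02, 2.04 and 2.09 Mb from the start of Jk1 at 70722562. The orientation of a segment was read from its WT joins: Igkv10-94 and Igkv10-96 lie on the minus strand and join Jk1 by inversion, whereas Igkv10-95 between them lies on the plus strand and joins by deletion. The sequences below show what RAG and the joining enzymes had to work with, and come from the majority base of the deposited reads. The signal was the same in the members, with heptamer and nonamer in capitals:
Signal of Igkv10-94, Igkv10-95 and Igkv10-96: CACAATGatataagtcataACATAAACC
It lies at chr6:68704480-68704507, chr6:68680849-68680876 and chr6:68631935-68631962. The RefSeq segment of Igkv10-96 ends 2 bp short of its heptamer. The last 60 coding bases before the heptamer were identical in Igkv10-94 and Igkv10-95, and Igkv10-96 differed from them at 10 positions, shown in capitals:
Igkv10-94 and Igkv10-95: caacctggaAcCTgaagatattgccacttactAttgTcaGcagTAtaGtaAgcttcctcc
Igkv10-96: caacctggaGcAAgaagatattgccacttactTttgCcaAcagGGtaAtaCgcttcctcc
These windows are chr6:68704508-68704567 (minus strand), chr6:68680789-68680848 (plus) and chr6:68631963-68632022 (minus). The last 9 bases were identical in all members. Over 280 bases before the heptamer, Igkv10-94 and Igkv10-95 were 97.1% identical, Igkv10-94 and Igkv10-96 94.3%, and Igkv10-95 and Igkv10-96 93.6%. The nearest difference between Igkv10-94 and Igkv10-95 stood 83 bases from the heptamer and was reached by 99.9% and 100% of their rows in the main orientation. Most rows of that orientation could thus be told apart by their aligned bases. Rows in the other orientation were not checked in this way. The partner end, Jk1, reads as follows over chr6:70722562-70722599 in 1832 of 1886 reads:
Jk1: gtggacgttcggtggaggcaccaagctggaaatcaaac

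Depth set how much could be read. WT libraries held 47130 to 53074 rows in clone A and 291174 to 305846 in clone B, Ku70-/- libraries 3075 to 6383 and 50218 to 60811, Lig4-/-Ku70-/- libraries 1867 to 4188 and 4457 to 7225, and +Lig4 libraries 10577 to 13708 and 20882 to 35059. Over all 42 lists the range was 3 to 305846 rows. The authors had reduced libraries to 167151 raw reads in lineage A, 377068 in C and 600000 in B. Lineage B was sequenced on Nextseq in a single run and the others on Miseq, so differences between lineages B and A or C cannot be told apart from sequencer and depth. No read name was shared between the 42 pairs of replicates.

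In WT clone A the family took 2.28% ± 0.230 of library rows (SD, n = 3), and in WT clone B 0.997% ± 0.0334. The members' shares of the family also differed: Igkv10-96 supplied 37.7% ± 7.38 of family rows in clone A and 73.1% ± 1.21 in clone B. Igkv10-94 made up 0.371%, 0.551% and 0.371% of rows in the clone A libraries and 0.0975%, 0.0939% and 0.105% in clone B. Igkv10-95 made up 0.766%, 1.17% and 1.05% in clone A and 0.168%, 0.161% and 0.179% in clone B. For both segments every clone A library was above every clone B library. Igkv10-96 stood at 0.876%, 0.718% and 0.957% in clone A and at 0.759%, 0.705% and 0.721% in clone B, and these ranges overlap.

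Mean usage was thus 4.36-fold lower in clone B for Igkv10-94 and 5.87-fold lower for Igkv10-95, against 1.17-fold for Igkv10-96. Of 101 Igkv segments compared, 33.7% were lower in clone B without overlap and 38.6% higher without overlap, and the median log2 ratio of clone B to A was 0.15. In that list Igkv10-95 had the 2nd lowest ratio and Igkv10-94 the 3rd lowest. The adjacent segment on the Jk1 side, Igkv19-93, was 3.02-fold lower in clone B. Farther toward Jk1, Igkv12-89 was level, at 0.232% in clone A against 0.231% in clone B, while Igkv13-84 and Igkv4-83 were 2.63-fold and 4.04-fold lower in clone B. On the other side of the family, Igkv12-98 was higher in clone B, at 0.388% against 0.232%, and Igkv14-100 beyond it was 2.15-fold lower. Segments around the family thus went both ways.

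**Figure D1:**
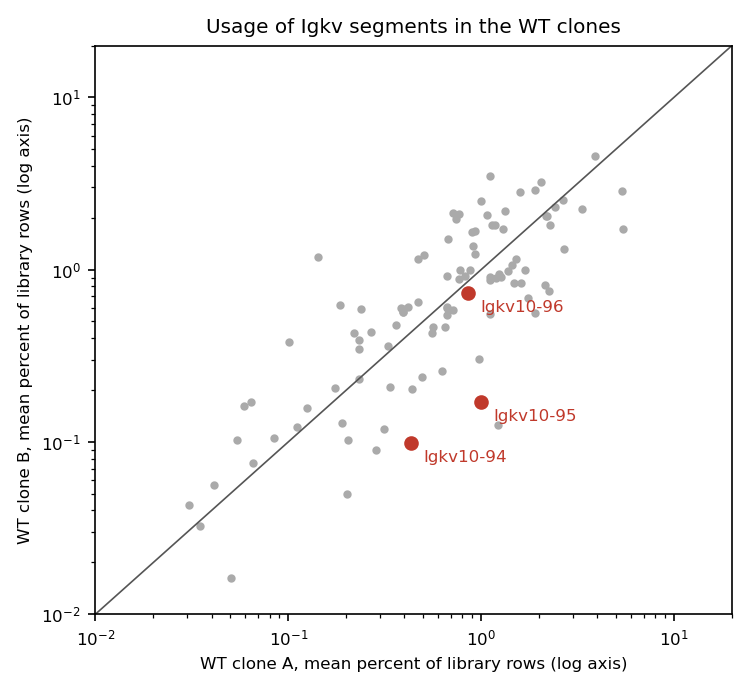
Mean percent of library rows of each Igkv segment in WT clone A (x axis) and WT clone B (y axis), both on log axes, with the line of equality; each point is a segment and each mean covers 3 libraries. Igkv10-94 and Igkv10-95 lie well below the line, at 0.431% and 0.995% in clone A against 0.0988% and 0.169% in clone B, and Igkv10-96 lies near it.

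By mean usage the members ranked 67th (Igkv10-94), 38th (Igkv10-95) and 45th (Igkv10-96) of 126 segments with rows in WT clone A, and 96th, 85th and 50th of 134 in WT clone B. Averaged over both clones, Igkv10-94 (0.265%) stood between Igkv14-126 (0.273%) and Igkv6-15 (0.241%), Igkv10-95 (0.582%) between Igkv11-106 (0.607%) and Igkv5-45 (0.561%), and Igkv10-96 (0.789%) between Igkv4-60 (0.790%) and Igkv4-75 (0.677%). These averages hide different orders within clones. Igkv6-15 ranged from 0.0849% to 0.111% in clone A, below Igkv10-94, and from 0.369% to 0.389% in clone B, above it. Igkv4-60 overlapped Igkv10-96 in clone A, at 0.503% to 0.942%, and was above it in clone B, at 0.893% to 0.948%. Igkv14-126 in clone A (0.279% to 0.380%) overlapped Igkv10-94, and Igkv11-106 in clone A (0.473% to 0.806%) overlapped Igkv10-95.

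WT joints of the 3 segments were built alike. The most frequent joint of each had lost 3 bases of the V coding end and none of Jk1, with no overlap and no inserted base. It was present in 6 of 6 WT libraries and made up 10.8% of main-orientation rows of Igkv10-94, 5.81% of Igkv10-95 and 8.13% of Igkv10-96. It is shown as 20 bases from each side:
Igkv10-94 and Igkv10-95, WT: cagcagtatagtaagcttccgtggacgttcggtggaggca
Igkv10-96, WT: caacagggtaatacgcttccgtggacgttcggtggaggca
Measured from the heptamer border, the mean loss of V bases per row averaged 3.25 bp ± 0.343 for Igkv10-94, 3.01 bp ± 0.193 for Igkv10-95 and 2.86 bp ± 0.540 for Igkv10-96 in clone A (SD, n = 3). In clone B it averaged 3.29 bp ± 0.325, 3.16 bp ± 0.166 and 2.36 bp ± 0.0873. Loss of more than 10 bp occurred in 0.697% to 4.82% of rows in these group means. Jk1 was intact in 46.5% to 57.8% of rows.

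Most WT joints either held inserted bases or joined the ends directly, with neither an insert nor an overlap. Inserted bases were present in 57.7%, 46.3% and 58.9% of Igkv10-94 rows, 62.9%, 68.9% and 56.8% of Igkv10-95 rows and 56.9%, 48.7% and 57.3% of Igkv10-96 rows in clone A. In clone B the range over the members and libraries was 37.1% to 44.7%. Direct joints made up 42.5% ± 9.77, 34.8% ± 5.52 and 43.4% ± 6.04 of rows in clone A and 49.3% ± 2.09, 50.6% ± 1.95 and 54.5% ± 0.997 in clone B (SD, n = 3, in the order Igkv10-94, Igkv10-95, Igkv10-96), so the group mean of inserts was the larger in clone A and that of direct joints in clone B. Inserts had a median of 2 bp, and 87.2% to 90.0% were of 3 bp or fewer. A single C was the most frequent insert at each member (20.5%, 18.9% and 16.8% of inserts), followed by CC (10.8%, 11.8% and 11.9%). Rows with C had an intact Jk1 end in 82.1% to 86.4% of cases. Rows with AC had an intact Jk1 end in 96.5% of Igkv10-95 cases and 94.2% of Igkv10-96 cases, and rows with A in 6.93% to 13.3% at the 3 members.

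The members' WT end loss differed from the rest of each library when measured from the RefSeq 3′ end. Rows of Igkv10-94 had lost 1.36 bp more than rows of all other Igkv segments and those of Igkv10-95 1.18 bp more, in 6 of 6 libraries. Rows of Igkv10-96 had lost 1.31 bp less, in 6 of 6 libraries (two-sided exact sign-flip test, adjusted p = 0.0445 for each over 101 segments, the smallest p being 0.031). Of all segments, 57.4% were higher and 12.9% lower in all 6 libraries, so a higher value is the common case. The result at Igkv10-96 depends on the annotated end, which stops 2 bp short of its heptamer, more than the 1.31 bp difference. With the most frequent WT clone A position as the end, the difference was -0.158 bp and no longer passed. With distinct junctions the differences were 0.785, 0.660 and -1.68 bp and none passed. With any library left out, 5 libraries cannot reach the threshold and the adjusted p lay between 0.0728 and 0.0889. Between members, 15 within-library comparisons of usage and joint structure were made per genotype, and none passed the threshold. Over 6 libraries the smallest raw p is 0.031, so a comparison could pass only if most of the 15 reached it. Over 5 libraries or fewer none could pass. The lack of calls therefore does not show that the members are alike. The smallest adjusted p was 0.117, for WT usage and for end loss from the RefSeq ends, with a raw p of 0.031. Igkv10-94 was below Igkv10-95 in usage in 6 of 6 WT libraries (mean difference -0.317 percentage points). It was also below it in 6 of 6 Ku70-/- libraries (-0.423) and 6 of 6 Lig4-/-Ku70-/- libraries (-0.983). Their signals and last 60 coding bases were identical, but they differ farther into the segment, in position and in orientation. What underlies the usage difference was not tested.

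Without Ku70, the usage of the members overlapped WT in lineage A and was above WT in lineage B, and no member passed the test over both lineages. In lineage A, Igkv10-94 made up 0.618%, 0.370% and 0.642% of Ku70-/- rows, Igkv10-95 1.07%, 1.27% and 1.02%, and Igkv10-96 0.780%, 0.828% and 1.00%, all overlapping the WT clone A values. In lineage B, Igkv10-94 made up 0.346%, 0.278% and 0.324%, Igkv10-95 0.552%, 0.575% and 0.633%, and Igkv10-96 0.930%, 0.927% and 0.888%. Each of these was above all WT clone B libraries. The share of all segments without overlap in lineage B alone was not counted, so this is not shown to be particular to the family. The ratios of Ku70-/- to WT means were 1.26, 1.13 and 1.02 in lineage A and 3.20, 3.46 and 1.26 in lineage B, in the order Igkv10-94, Igkv10-95, Igkv10-96. The difference averaged over lineages was 0.165 percentage points for Igkv10-94, 0.271 for Igkv10-95 and 0.103 for Igkv10-96, with adjusted p of 0.0993, 0.0869 and 0.285 (two-sided exact permutation within lineages, Benjamini-Hochberg over 139 segments). In this comparison 7.19% of segments were called higher and 12.9% lower, and 7.19% and 10.1% did not overlap in both lineages.

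These 28 calls rest on a few libraries: there were 0 without Ku70-/- clone A1 replicate 1, and 17, 14 and 17 without WT clone A replicates 1, 2 and 3. Without Ku70-/- clone A1 replicate 2, Igkv10-94 passed the threshold at 0.208 percentage points (exact permutation, adjusted p = 0.0448). On a log2 scale Igkv10-94 also passed, at 1.01 (exact permutation, adjusted p = 0.0356), where 47 of 139 segments were called. With each distinct joint counted once, Igkv10-95 passed at 0.262 percentage points (exact permutation, adjusted p = 0.0353), where 66 of 139 segments were called. The Igkv10-94 difference then fell to 0.0196. Within the 2 sequencing runs shared in lineage A, the mean differences were 0.0450, 0.0340 and 0.0777 percentage points. Whether the usage change differed between lineages was tested, and no member passed (log2 scale, exact permutation, adjusted p = 0.319, 0.302 and 0.491).

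Percent of library rows hides a fall in the number of joints recovered. Per 100000 raw reads, WT clone A held 131 ± 35.5 Igkv10-94 rows, 305 ± 78.4 Igkv10-95 rows and 258 ± 41.2 Igkv10-96 rows (SD, n = 3), and Ku70-/- clone A1 held 16.2 ± 7.28, 33.9 ± 12.4 and 26.9 ± 12. WT clone B held 48.9 ± 4.06, 83.8 ± 6.69 and 360 ± 13.7, and Ku70-/- clone B1 29.9 ± 2.62, 55.9 ± 9.10 and 86.8 ± 7.91. On this scale the mean differences were -67.1, -149 and -252 (exact permutation p = 0.005 each, the smallest the design allows). Of 139 segments tested, 116 were called on this scale, so the members share it with most segments. Rows without molecular identifiers are not independent molecules.

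**Figure D2:**
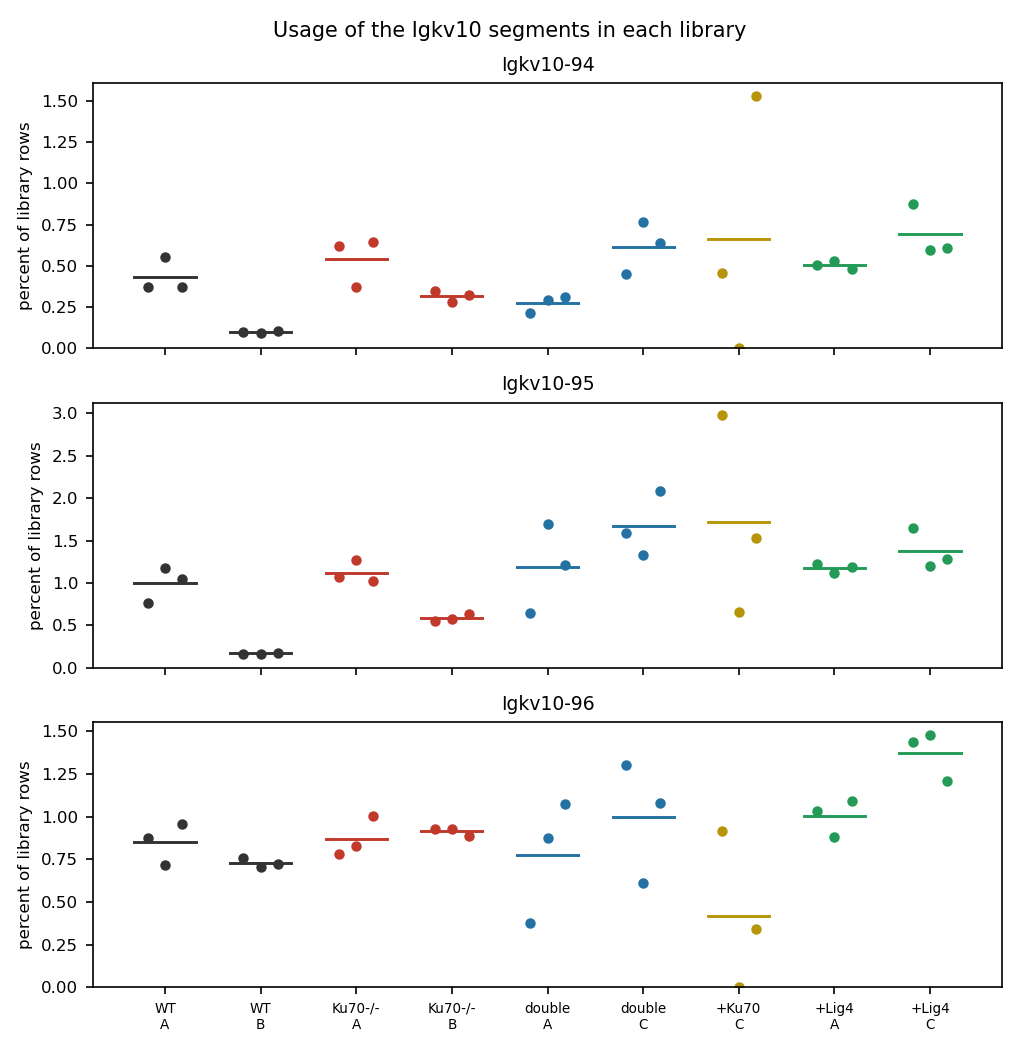
Percent of library rows at each Igkv10 segment (y axis, separate scales from 0), with a point for each library and a bar for the mean of 3 libraries, by group and lineage (x axis; double stands for Lig4-/-Ku70-/-). In WT clone B, Igkv10-94 and Igkv10-95 sit near 0.0988% and 0.169%, below the other libraries drawn except a +Ku70 library at 0 for Igkv10-94, while Igkv10-96 in WT clone B, at 0.728%, lies within their range.

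The structure of the joints changed at every member when Ku70 was absent. Inserted bases nearly disappeared: Ku70-/- clone A1 libraries had them in 5.26%, 4.76% and 2.44% of Igkv10-94 rows, in none of the Igkv10-95 rows, and in 4.17%, 0% and 1.56% of Igkv10-96 rows. In clone B1 the share was 0% to 1.80% over members and libraries. For Igkv10-95 in clone A1, 0 of 33, 72 and 65 rows allow shares of up to 9.09%, 4.17% and 4.62%. Every Ku70-/- library was below every WT library of its lineage. The differences were -46.5, -52.0 and -44.7 percentage points (exact permutation, adjusted p = 0.005 for each). All 79 segments tested fell, 100%, and the median over them was -50.4. Within the shared runs of lineage A the differences were -49.0, -62.8 and -52.2, and in lineage B, a single run, -42.8, -41.1 and -37.1.

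Microhomology of at least 2 bp was more frequent without Ku70. Igkv10-96 showed it in 41.7%, 21.3% and 17.2% of rows in Ku70-/- clone A1 and in 14.3%, 16.4% and 15.7% in clone B1, against 0% to 1.97% in WT. Igkv10-95 showed it in 12.1%, 47.2% and 20.0% and in 15.5%, 10.4% and 14.0%, against 0% to 1.02% in WT. Neither segment's Ku70-/- libraries overlapped WT. Igkv10-94 showed it in 0%, 0% and 9.76% in clone A1, where it had 19, 21 and 41 rows, and in 12.6%, 13.8% and 17.8% in clone B1, against 0% to 1.09% in WT. The differences were 20.6 percentage points for Igkv10-96 and 19.5 for Igkv10-95 (exact permutation, adjusted p = 0.00648 each), and 8.59 for Igkv10-94 (adjusted p = 0.05, not under the threshold). Of 79 segments, 94.9% were called higher and 1.27% lower, with a median of 16.6, and 77.2% were higher without overlap in both lineages.

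The Igkv10-94 difference passed the threshold without Ku70-/- clone A1 replicate 1 or without replicate 2, at 9.41 percentage points both times (exact permutation, adjusted p = 0.0208 and 0.0209), the Ku70-/- libraries in which none of its rows had microhomology of that length. With overlaps of 1 bp included it rose by 26.4 percentage points (exact permutation, p = 0.01), and in clone B1 43.6% ± 1.48 of its rows had at least 1 bp (SD, n = 3). Overlaps of 4 bp or more were rare, and with that limit neither Igkv10-95 (1.59) nor Igkv10-96 (0.642) passed. Within the shared runs of lineage A the differences were 4.88, 33.5 and 18.2 for Igkv10-94, Igkv10-95 and Igkv10-96, and in lineage B 13.9, 12.8 and 15.1.

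Ends were shortened on both sides. Mean V loss from the heptamer border was 20, 40.05 and 28.2 bp for Igkv10-94 in the Ku70-/- clone A1 libraries and 27.1, 28.5 and 19.3 bp in clone B1. For Igkv10-95 it was 28.2, 27.6 and 26.3 bp and then 24.8, 25.2 and 22.9 bp. For Igkv10-96 it was 15.8, 40.8 and 42.6 bp and then 15.0, 16.9 and 15.8 bp. No Ku70-/- library overlapped WT. Against WT the loss rose by 23.9, 22.7 and 21.9 bp (from the RefSeq end, exact permutation, adjusted p = 0.005 each), with 100% of the 73 segments tested called higher and a median of 19.2 bp. Within the shared runs of lineage A the differences were 31.0, 23.9 and 38.6 bp, and in lineage B 21.7, 21.1 and 13.5 bp. Losses of more than 10 bp made up 67.7% ± 4.42, 68.5% ± 3.65 and 48.7% ± 4.53 of rows in clone B1 (SD, n = 3).

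Jk1 loss, a measure added after the data were seen, rose by 20.8, 23.1 and 20.8 bp (exact permutation, adjusted p = 0.005 each, 100% of 79 segments). An intact Jk1 end remained in 0% to 1.08% of rows in the Ku70-/- group means.

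The positions of Ku70-/- joints, pooled over 6 libraries of which clone B1 supplied most rows, were alike where the coding ends were identical. Igkv10-94 and Igkv10-95, with the same coding end, shared their 3 most frequent positions: 7 bases from the heptamer (13.3% and 11.6% of main-orientation rows that lay within the window drawn), 17 bases (8.40% and 5.55%) and 33 bases (5.68% and 5.55%). At Igkv10-96 the leading positions were 8 bases (10.1%), 5 bases (8.23%), 4 bases (7.12%) and 9 bases (6.84%). Recurrent Ku70-/- joints are shown for each member, with overlap bases in capitals:
Igkv10-94, Ku70-/-: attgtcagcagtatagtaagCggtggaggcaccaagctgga
Igkv10-95, Ku70-/-: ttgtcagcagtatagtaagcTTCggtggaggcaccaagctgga
Igkv10-96, Ku70-/-: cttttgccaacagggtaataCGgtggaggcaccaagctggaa
The last of these was the most frequent, with 39 rows in 5 of 6 libraries, and its overlap includes a position at which Igkv10-96 differs from the other members. Joints were also more varied: 35.8 to 56.3 different joints per 100 main-orientation rows at the 3 members in Ku70-/- libraries pooled, against 5.03 to 13.6 in WT. These counts depend on depth, and WT had more rows.

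**Figure D3:**
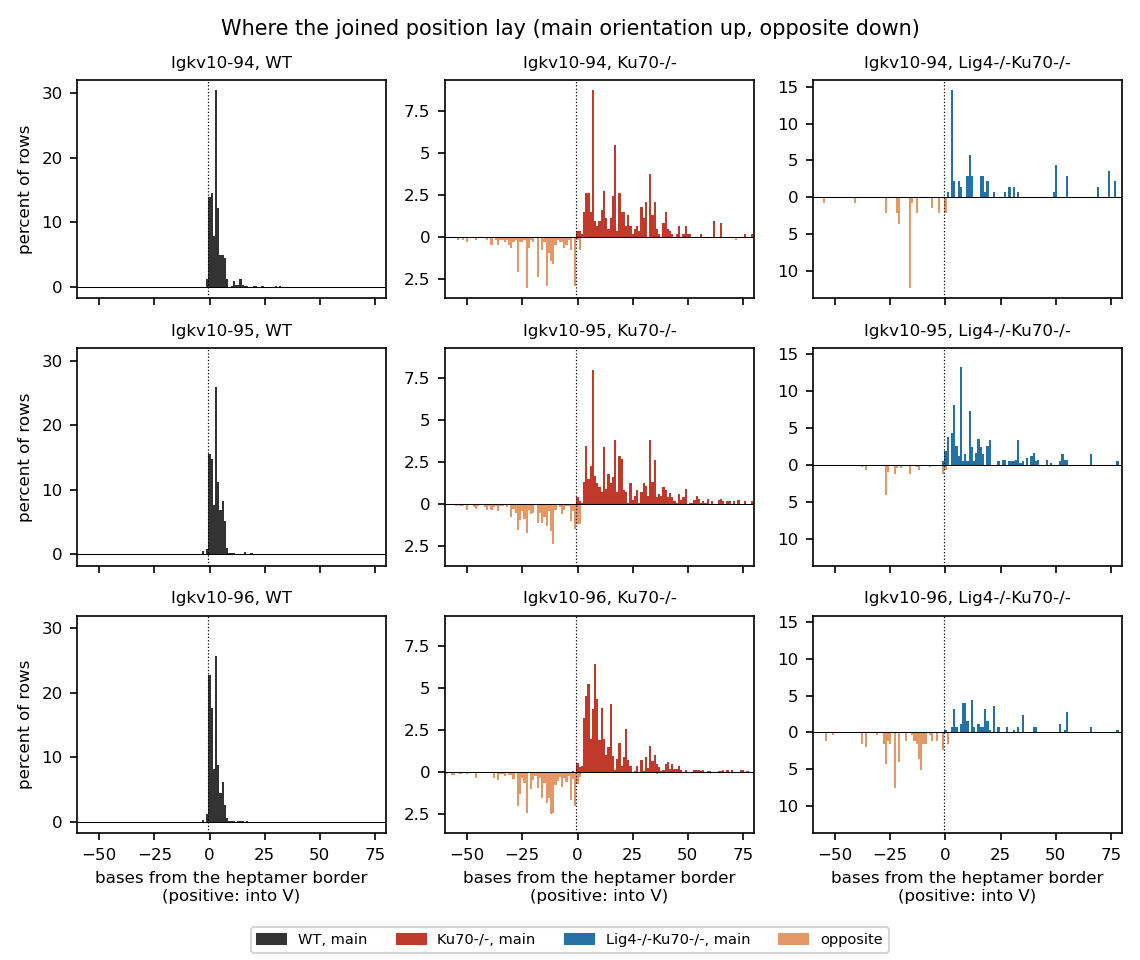
Percent of rows (y axis) by the joined position in bases from the heptamer border (x axis, positive into the V segment), pooled over 6 libraries of each genotype, with main-orientation rows up and opposite-orientation rows down. WT rows lie within a few bases of the border, whereas Ku70-/- and Lig4-/-Ku70-/- rows spread inward, and their opposite-orientation rows lie on the signal side.

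Ku70-/- rows also joined Jk1 to the wrong side of the cut. In these opposite-orientation rows Jk1 is joined to the signal side of the V segment, the arrangement of a hybrid joint. WT libraries held 0% of such rows at Igkv10-94 in clone A and 0.312% to 0.364% in clone B, and 0% to 0.816% at Igkv10-95. At Igkv10-96 the WT share was 0%, 0% and 2.56% in clone A and 0.136%, 0.629% and 0.544% in clone B. Ku70-/- clone A1 libraries had 42.1%, 4.76% and 4.88% at Igkv10-94, 9.09%, 18.1% and 18.5% at Igkv10-95, and 33.3%, 19.1% and 32.8% at Igkv10-96. Clone B1 libraries had 34.5%, 30.5% and 35.0%, then 31.8%, 29.9% and 30.9%, then 30.6%, 37.2% and 36.1%. No Ku70-/- library overlapped WT at any member. The high value at Igkv10-94 in clone A1 rests on 8 of 19 rows.

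The differences were 25.1, 22.8 and 30.9 percentage points for Igkv10-94, Igkv10-95 and Igkv10-96 (exact permutation, adjusted p = 0.00572 each), with 97.5% of 79 segments called higher, 87.3% higher without overlap in both lineages, and a median of 29.4. Within the shared runs of lineage A they were 4.82, 18.2 and 24.7, and in lineage B 33.0, 30.4 and 34.2. The recurrent opposite joints show the signal side, with the heptamer read backwards as cattgtg:
Igkv10-96, WT: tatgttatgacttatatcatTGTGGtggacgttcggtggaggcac
Igkv10-96, Ku70-/-: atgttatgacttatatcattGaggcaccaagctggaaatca
Igkv10-95, Ku70-/-: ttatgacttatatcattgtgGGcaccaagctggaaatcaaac
The WT joint made up 9 of the 41 WT opposite rows of Igkv10-96 and holds the whole signal end and the whole Jk1 end. On the signal side of the pooled Ku70-/- rows, 23 bases from the border was among the leading positions at each member, at 10.4%, 6.15% and 7.45% of opposite rows. Distances of 11 and 12 bases were also frequent at Igkv10-95 (8.62% and 5.85%) and Igkv10-96 (7.45% and 7.62%). The overlap of the WT joint runs 4 bases beyond the Jk1 coding end, so it counts as microhomology although no base was lost. The Ku70-/- joints had lost 14 and 16 bases of Jk1.

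Among the other Igkv segments the opposite share in Ku70-/- libraries was higher for those that join by inversion, a contrast that was not tested. In Ku70-/- clone A1, other segments that join by inversion had 38.5% ± 4.49 opposite rows and those that join by deletion 13.6% ± 6.11, and in clone B1 35.8% ± 0.753 and 20.8% ± 0.240 (SD, n = 3). Igkv10-95, the member that joins by deletion, stood at 29.9% to 31.8% in clone B1, above the 20.6% to 21.0% of its class in each library. In clone A1 it stood at 9.09% against 20.5% in replicate 1, and at 18.1% and 18.5% against 9.06% and 11.2% in the other replicates. Against all other rows of the same library, the Ku70-/- opposite share of Igkv10-95 was lower by a mean of -7.19 percentage points and higher in 2 of 6 libraries (exact sign-flip, adjusted p = 0.307). No structure measure of a member passed the threshold against the rest of the Ku70-/- libraries. The smallest adjusted p was that of end loss at Igkv10-95, longer by 4.43 bp in 6 of 6 libraries (exact sign-flip, adjusted p = 0.0955), where 12.7% of 55 segments were higher in all 6.

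**Figure D4:**
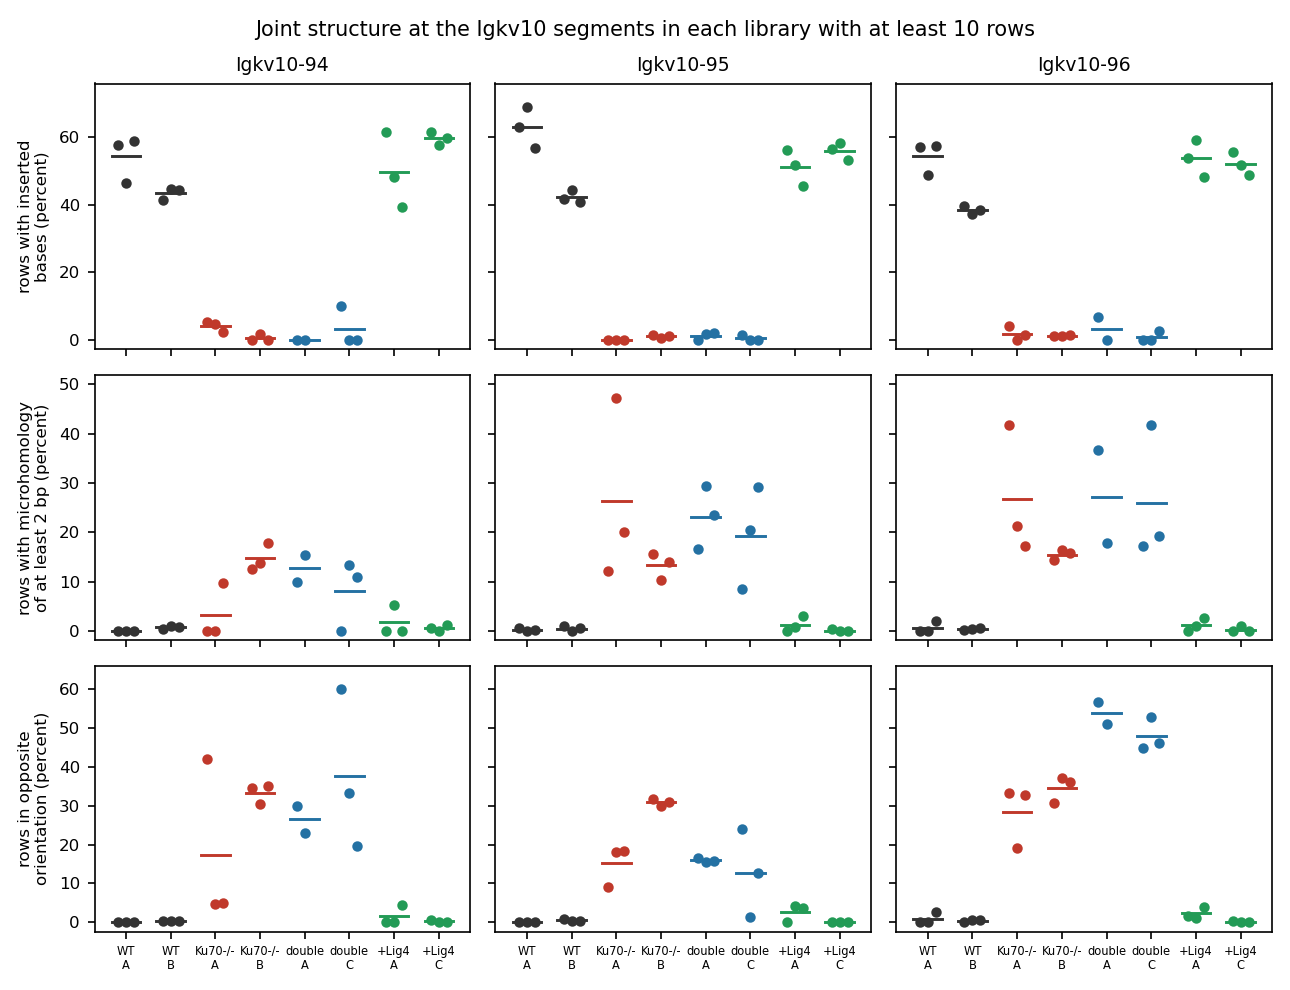
Percent of rows with inserted bases (top), with microhomology of at least 2 bp (middle) and in opposite orientation (bottom) at each Igkv10 segment, for each library with at least 10 rows (points) and the group mean (bars; double stands for Lig4-/-Ku70-/-). WT and +Lig4 libraries are high in inserts and low in the other panels, and Ku70-/- and double-deficient libraries are the reverse, with Igkv10-96 at 44.8% to 56.7% opposite rows in the double-deficient libraries drawn.

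Lists from cells without Lig4 alone were short over all segments, and so held few rows at the family. The 12 Lig4-/- libraries held 490 rows together, of which 1 fell at Igkv10-94, 9 at Igkv10-95 and 3 at Igkv10-96. Pooled shares were 0.204% (95% exact Clopper-Pearson interval 0.00517% to 1.13%), 1.84% (0.843% to 3.46%) and 0.612% (0.126% to 1.78%). The family as a whole took 2.65% of these rows (1.42% to 4.49%), where the means in WT clones A and B were 2.28% and 0.997%. Only 4 libraries held any, and 6 of the Igkv10-95 rows were copies of 1 joint in clone A1 of the second set, replicate 2. No joint structure was therefore compared with WT, Lig4-/-Ku70-/- or +Lig4. Clone C held 0 family rows among its 65 library rows. These intervals cover counting error only.

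Removing Ku70 as well as Lig4 left lists deep enough to describe. In clone A1_1, Igkv10-94 made up 0.214%, 0.292% and 0.310% of rows, Igkv10-95 0.643%, 1.70% and 1.22%, and Igkv10-96 0.375%, 0.877% and 1.07%. In clone C1 they made up 0.449%, 0.766% and 0.637%, 1.59%, 1.33% and 2.09%, and 1.30%, 0.613% and 1.08%. Replicate 2 of clone C1 held few different joints: 6 in 45 rows of Igkv10-94, 15 in 78 of Igkv10-95 and 9 in 36 of Igkv10-96. Igkv10-95 was the highest of the members in 6 of 6 libraries compared with Igkv10-94 and in 6 of 6 compared with Igkv10-96, and in clone C1 it ranked 15th of 114 segments by mean usage. Against Ku70-/- of lineage A, the only lineage with both, 3 libraries against 3 cannot go below an exact p of 0.1. Igkv10-94 differed by -0.271 percentage points without overlap (exact permutation, adjusted p = 0.397), where 12.2% of segments were lower without overlap. Igkv10-95 and Igkv10-96 overlapped between the genotypes. Within shared runs the Igkv10-94 difference ran from -0.404 to -0.0774.

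Opposite-orientation joints made up much of the Igkv10-96 rows in these cells. The share was 56.7% and 51.1% in the clone A1_1 libraries with at least 10 rows and 44.8%, 52.8% and 46.2% in clone C1. Against Ku70-/- clone A1 it was higher by 25.5 percentage points without overlap (exact permutation, adjusted p = 0.65), where 13.8% of 65 segments were higher without overlap. Against the rest of each library it was higher by 18.2 percentage points in 5 of 5 libraries, too few libraries for the test set for 6. Igkv10-95 went the other way: 16.7%, 15.5% and 15.7% in clone A1_1 and 23.9%, 1.28% and 12.6% in clone C1. It was lower than the rest of the library in 6 of 6 (mean -19.6 percentage points, exact sign-flip p = 0.031, adjusted p = 0.0639), as were 34% of 47 segments. Other segments that join by deletion had 17.5% ± 1.18 and 16.4% ± 1.33 in these clones (SD, n = 3), and those that join by inversion 46.4% ± 4.10 and 37.7% ± 4.40. Igkv10-94, which shares its coding end and signal with Igkv10-95 but joins by inversion, had 30% and 23.1%, then 60%, 33.3% and 19.6%. It was above Igkv10-95 in 5 of 5 libraries, by a mean of 19.4 percentage points (exact sign-flip p = 0.0625, the smallest 5 libraries allow, adjusted p = 0.134). In clone C1 replicate 2, however, all 15 opposite rows of Igkv10-94 held 1 joint. What underlies the difference between these members was not tested.

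Microhomology in Lig4-/-Ku70-/- rows stood lowest at Igkv10-94 by its range. It was 10.0% and 15.4% in the clone A1_1 libraries with at least 10 rows and 0%, 13.3% and 10.9% in clone C1, below Igkv10-95 in 5 of 5 libraries (mean -12.3 percentage points, exact sign-flip p = 0.0625, adjusted p = 0.134). The 13.3% comes from a library in which 45 rows of Igkv10-94 held 6 distinct joints. Igkv10-95 had 16.7%, 29.3% and 23.5%, then 8.45%, 20.5% and 29.1%. Igkv10-96 had 36.7% and 17.8%, then 17.2%, 41.7% and 19.2%. Inserts stayed at 0% to 10.0% over members and libraries. Recurrence was low at this depth: 12 of 120 different main-orientation joints of Igkv10-95 occurred in 2 or more libraries, 1 of 51 at Igkv10-96 and 0 of 35 at Igkv10-94. The most shared joint of Igkv10-96 was found in 2 libraries with 7 rows, and its 3-base overlap also includes a position at which its coding end differs from the other members:
Igkv10-96, Lig4-/-Ku70-/-: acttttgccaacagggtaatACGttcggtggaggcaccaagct

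Adding Ku70 back to these cells left few rows. Clone A1_1 +Ku70 libraries held 181 rows together, with 2 at Igkv10-94, 6 at Igkv10-95 and 0 at Igkv10-96, which allows a share of up to 1.66%. In clone C1 +Ku70 the usage was 0.459%, 0% and 1.53% for Igkv10-94, 2.98%, 0.654% and 1.53% for Igkv10-95, and 0.917%, 0% and 0.340% for Igkv10-96. All overlapped Lig4-/-Ku70-/- clone C1, where 3.6% of segments were higher and 11.5% lower without overlap, and the Igkv10-96 difference was -0.579 percentage points (exact permutation, adjusted p = 0.993). Structure was not compared, since only 1 value from these libraries, Igkv10-95 in replicate 1, rested on 10 or more rows.

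With Lig4 added back to Lig4-/- cells, inserts were frequent at the members, and several measures lay apart from WT clone A. In clone A1 +Lig4, inserts were present in 61.4%, 48.2% and 39.4% of Igkv10-94 rows, 56.1%, 51.7% and 45.4% of Igkv10-95 rows and 53.8%, 59.1% and 48.0% of Igkv10-96 rows. The difference from WT clone A was -4.64, -11.8 and -0.620 percentage points, and it was without overlap at Igkv10-95, as it was in the lower direction at 57% of 93 segments. V end loss was higher without overlap at Igkv10-95 (0.860 bp), as at 27.2% of 92 segments, and Jk1 loss at Igkv10-94 (0.979 bp) and Igkv10-95 (1.21 bp), as at 68.8% of 93. Microhomology reached at most 5.36% and opposite rows at most 4.55% in any +Lig4 library. In clone A1 both shares overlapped WT clone A at each member. Of 93 segments, 45.2% were higher without overlap for microhomology and 46.2% for opposite rows. Mean V loss was 4.15 bp ± 0.699, 3.87 bp ± 0.728 and 2.77 bp ± 0.445 (SD, n = 3). Usage was 0.504%, 0.529% and 0.481% for Igkv10-94, 1.23%, 1.12% and 1.19% for Igkv10-95, and 1.03%, 0.879% and 1.09% for Igkv10-96, overlapping WT clone A each time. With 3 libraries against 3 the smallest p is 0.1, so none of these could pass, and the groups shared no run. Per 100000 raw reads, +Lig4 clone A1 held fewer rows than WT, with differences of -95.7, -221 and -186. Clone C +Lig4 had no WT group of its lineage and was not compared. Its usage was 0.876%, 0.599% and 0.609% for Igkv10-94, 1.65%, 1.20% and 1.28% for Igkv10-95, and 1.44%, 1.48% and 1.21% for Igkv10-96. Inserts were present there in 48.9% to 61.6% of rows over members and libraries, and mean V loss was 2.35 to 3.58 bp from the heptamer border.

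Segments outside the family were ranked by likeness over the 8 group means of WT, Ku70-/-, Lig4-/-Ku70-/- and +Lig4. The log2 usage of Igkv10-95 was most like that of Igkv19-93 (Pearson r = 0.940), Igkv14-100 (0.784) and Igkv6-32 (0.708) among 98 segments. Igkv10-94 was most like Igkv4-77 (0.850), Igkv19-93 (0.803) and Igkv4-80 (0.759), and Igkv10-96 most like Igkv4-77 (0.739), Igkv4-81 (0.692) and Igkv4-80 (0.687). Igkv19-93 is the next segment toward Jk1 and ran from 0.747% to 6.59%. Within the family r was 0.915 for Igkv10-94 and Igkv10-95, 0.754 for Igkv10-94 and Igkv10-96 and 0.569 for Igkv10-95 and Igkv10-96. The points share libraries and depth, so these values are a description.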

How the data were processed

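Per the labels' protocols, libraries followed a cited LAM-HTGTS protocol without its enzyme blocking step, and the authors reduced each set to a stated number of raw reads. The deposited lists hold positions on the genome and on the read, with 1 row per junction read; Bowtie2 and build mm10 are named in the submitters' processing notes, and versions and filters are not given in the sources used here. Rows as deposited were assigned to all Igkv segments with Python 3.11.15, pandas 2.3.3, numpy 2.4.6 and scipy 1.17.1. Segment coordinates are RefSeq's (GRCm38). Usage is the percent of library rows, in libraries of at least 100 rows; shares need at least 10 rows of a segment. Microhomology is the number of read bases that both the bait and the prey alignment cover, an insertion the unaligned bases between them, and end loss the V bases missing in main-orientation rows. When ends overlap, shared bases count for both ends. Sequences are majority bases of the deposited reads.

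Genotypes were compared for every segment by two-sided exact permutation within lineages (400 relabellings, smallest p 0.005; 0.1 for 1 lineage), with Benjamini-Hochberg adjustment over all segments tested and a threshold of 0.05. A segment was set against the rest of its library by exact sign-flip tests. The named segments are the 3 members, the 3 most similar in usage to each, and rank neighbours; neighbours on the chromosome were chosen after their values were seen. The members, lists and tests were chosen with earlier results of these data known. The procedure was tested on simulated data. Intervals and floors cover counting error only, and identical rows may be PCR copies. Alternatives are given in the closing section. In Lig4-/-Ku70-/- against Ku70-/-, same-numbered libraries shared runs and deviated together (correlations 0.405, 0.248 and 0.152 over segments), so the numbers may pair them. For Ku70-/- against WT the correlations were 0.278, 0.241 and 0.0702 in lineage A and 0.105, -0.0842 and 0.143 in lineage B. For +Lig4 against WT they were -0.0769, -0.277 and -0.0521. Neither was treated as paired, and +Ku70 was not checked. The permutation tests between genotypes used no pairing.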

Additional observations from a re-analysis of the deposited data

How the results depend on the processing

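Of 976 values under alternatives for 125 results, 859 kept their direction and side of the threshold or moved by less than the replicate spread, 32 lost and 9 gained a call, 44 moved and 32 reversed; the causes were not tested unless stated. Differences are in percentage points (end loss in bp), ordered Igkv10-94, Igkv10-95, Igkv10-96 where 3 are given. For Ku70-/- minus WT usage, rows per 100000 raw reads gave -67.1, -149 and -252, log2 1.01 for Igkv10-94, distinct junctions 0.262 for Igkv10-95, and a 20 bp window -0.0543 for Igkv10-96. Of 139 segments tested, those called numbered 66 with distinct junctions, 116 per raw reads and 47 on the log2 scale, against 28. Correlations between same-numbered libraries ran from -0.0842 to 0.278 there, and a replicate block in the test, whose smallest p is 0.031, left 0 usage calls. It changed no other call at the members. For Lig4-/-Ku70-/- minus Ku70-/- usage the block leaves the differences, -0.271, 0.0657 and -0.0947, unchanged by construction. Its smallest p with 3 pairs is 0.25, so it could make no call. Segments called for microhomology of at least 4 bp numbered 44, for insertions in segments of at least 30 rows 52 (fewer were tested), and for end loss of distinct junctions 48 (fewer were tested).

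For microhomology, Ku70-/- minus WT, 1 bp gave 26.4 at Igkv10-94, and 4 bp gave 1.59 and 0.642 at Igkv10-95 and Igkv10-96. Lineages A and B gave 0.125 and 0.417 for Igkv10-95 usage, 3.25 and 13.9 for Igkv10-94 microhomology, -62.9 and -41.1 for Igkv10-95 and -52.4 and -37.1 for Igkv10-96 insertions, 24.3 and 21.1 for Igkv10-95 and 30.2 and 13.5 for Igkv10-96 end loss, and 15.1 and 30.4 for Igkv10-95 opposite rows. The runs shared in lineage A gave usage 0.0450 and 0.0340 (Igkv10-94, Igkv10-95), microhomology 4.88 and 33.5 (the same), insertions -62.8 and -52.2 (Igkv10-95, Igkv10-96), end loss 31.0, 23.9 and 38.6, and opposite rows 4.82, 18.2 and 24.7.

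For Lig4-/-Ku70-/- minus Ku70-/-, Igkv10-95 usage was -9.77 per 100000 raw reads and -0.0066 on the log2 scale, Igkv10-94 microhomology 19.5 at 1 bp and 0 at 4 bp, and distinct junctions gave Igkv10-95 insertions 3.59 and opposite rows -3.86. For +Lig4 minus WT, usage per 100000 raw reads was -95.7, -221 and -186, microhomology at 1 bp 9.14, 6.15 and 5.01, distinct Igkv10-96 insertions -5.88 and the Igkv10-94 median end loss 0.333. For +Ku70 minus Lig4-/-Ku70-/- usage, Igkv10-94 gave -8.84 per 100000 raw reads and -0.54 on the log2 scale, and Igkv10-95 -24.2 and -0.10.

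Against the rest of the library, 4 bp microhomology was 0.0380 in WT, -1.72 in Ku70-/- and -1.23 in Lig4-/-Ku70-/- at Igkv10-95 and -2.72 in Ku70-/- at Igkv10-96. Distinct junctions gave Igkv10-95 WT insertions -5.23, WT end loss 0.785, 0.660 and -1.68, and Igkv10-96 Ku70-/- opposite rows -1.38; the WT clone A mode as end gave -0.158 at Igkv10-96. Between members, distinct junctions gave, for Igkv10-94 minus Igkv10-95, WT microhomology -0.307, Ku70-/- end loss -2.03 and Ku70-/- opposite rows -2.27; for Igkv10-94 minus Igkv10-96, insertions -4.14 in WT and -0.182 in Ku70-/- and Lig4-/-Ku70-/- end loss 13.9; and for Igkv10-95 minus Igkv10-96, Ku70-/- usage 0.0230.

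Leaving out 1 library at a time gave 0.140 to 0.208 for Igkv10-94 usage and 6.97 to 9.41 for its microhomology, Ku70-/- minus WT, and 0 to 31 usage calls. WT end loss against the rest ran from 1.24 to 1.52, 1.08 to 1.29 and -1.38 to -1.26. At Igkv10-95 against the rest, WT insertions ran from -1.32 to 1.18, WT opposite rows from -0.137 to 0.0279, and microhomology from -3.46 to 4.03 in Ku70-/- and -0.0372 to 4.03 in Lig4-/-Ku70-/-. At Igkv10-96, WT opposite rows ran from -0.0126 to 0.492, and Ku70-/- end loss from -1.91 to 3.59, insertions from -0.576 to 0.112 and microhomology from -0.674 to 4.59.

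Each group is 1 clone, and Lig4-/- and +Ku70 libraries hold too few rows to compare joint structure at the members.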
